A study of Mus musculus with 24 samples.

Results

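RNA from the brains of 12 mice of a gfap-Cre line was compared between carriers and non-carriers of the Cre recombinase, a set chosen by its cell type and genotype labels out of 24 libraries in the series. The 6 Cre-positive mice carried gfap-Cre and EAAT2 Δ/+, a deleted allele beside a + allele. The 6 Cre-negative mice lacked Cre and were EAAT2 +/+, so the recombinase and the deleted allele changed together and their parts cannot be told apart. In the names of the lines gfap is the gene of an astrocyte filament, whose promoter is used to drive Cre in astrocytes. No source used here gives the identity of the Cre line, the deleted exon, the brain region taken, age or sex. Each library is labelled as 1 mouse brain sample, and the other 12 libraries, from a syn-Cre line (6 syn-Cre-positive EAAT2 −/− and 6 syn-Cre-negative EAAT2 +/+ mice), enter below only where the called genes are set beside them.

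EAAT2, encoded by Slc1a2 and also known as GLT-1, is the main carrier that clears synaptic glutamate into astrocytes. Glutamate taken up there is turned into glutamine by glutamine synthetase and returned to neurons, which make glutamate from it again. Astrocytes under stress or injury typically raise filament and acute-phase genes, and microglia and other immune cells often respond beside them. The comparison asks which transcripts of the brain differ between gfap-Cre-positive EAAT2 Δ/+ and Cre-negative EAAT2 +/+ mice. Whether EAAT2 was lower in astrocytes was not measured here. In bulk tissue, fewer cells of a type and less RNA per cell cannot be told apart.

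Of 19726 genes tested, 2 passed edgeR's quasi-likelihood test at a Benjamini-Hochberg adjusted p under 0.05, which is 0.0101% of them. Prm1, which encodes a protamine that packs DNA in sperm heads, was 38.8-fold higher in Cre-positive brains. Prickle2, which encodes a polarity protein found at neuronal synapses, was 47.8% lower. Each direction thus held 0.00507% of the genes tested. Slc1a2 and Gfap did not pass. No member of the lists for glutamate handling, glial state, inflammation, myelin, synapses or vessels passed either.

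Counts in genes ran from 45950905 to 69652824 per library. In both groups replicates 1, 2 and 6 had 5.88 to 6.37% of their reads outside annotated genes and replicates 3, 4 and 5 had 4.47 to 5.35%. This split is balanced over the groups, and values within each set of 3 against 3 libraries are given below for the called genes and the main lists. Library Cre-negative 4 stood apart on the first principal component of log2 CPM (28.3% of the variance), at −31.9 against −16.1 to 14.2 in the other 11 libraries. CPM are counts divided by a library size that was scaled by TMM. All 12 libraries held 61.1 to 73.5 CPM of the Y-linked Ddx3y and at most 0.199 CPM of Xist. Leading numbers in the sample titles, whose meaning no label states, were 71 and 72 in Cre-positive samples and 74, 75 and 76 in Cre-negative ones, so whatever they mark cannot be told apart from the genotype.

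Slc1a2 itself (ENSMUSG00000005089) ranged from 3043 to 3855 CPM in Cre-positive libraries with a median of 3549, and from 2494 to 3980 CPM in Cre-negative ones with a median of 3636. The groups overlapped, the log2 fold change was −0.02 (95% interval −0.17 to 0.14, edgeR adjusted p = 1.00), and the interval spans −11.3% to 10.4%. Without library Cre-negative 4 it was −0.10. The counts sum all exons. Whether the deleted exon would lower them was not tested, and the labels were not checked by this gene. Of the 6 tested members of the Slc1 carrier family 0 were called and 4 lay above 0 (median 0.018). The second astrocyte carrier gene, Slc1a3 (GLAST), stood at 765 ± 21.3 against 737 ± 50.6 CPM (SD, n = 6 each), a log2 fold change of 0.05 (95% interval −0.05 to 0.15). The neuronal carrier gene Slc1a1 was at 0.04 and the Purkinje cell carrier gene Slc1a6 at −0.13. No carrier of the family passed as higher or lower.

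Prm1 (ENSMUSG00000022501, GRCm38 chromosome 16, 10796326 to 10805839, minus strand) lies in a cluster with Prm2, Prm3 and Tnp2, further genes of sperm development. Protamines replace histones as sperm heads condense. The 250 bases before the RefSeq start sites of Prm1 and of its neighbours Prm2 and Tnp2, which stayed at a few counts, are shown. Capitals mark TATAA, the core of a TATA box, and TGANNTCA, a relaxed form of the cAMP response element, each searched on both strands. The windows are chr16:10796824-10797073 for Prm1, chr16:10792106-10792355 for Prm2 and chr16:10788656-10788905 for Tnp2, all on the minus strand of GRCm38.p6 and written 5′ to 3′. The RefSeq start of Prm1 lies within the longer GENCODE gene model.
Prm1: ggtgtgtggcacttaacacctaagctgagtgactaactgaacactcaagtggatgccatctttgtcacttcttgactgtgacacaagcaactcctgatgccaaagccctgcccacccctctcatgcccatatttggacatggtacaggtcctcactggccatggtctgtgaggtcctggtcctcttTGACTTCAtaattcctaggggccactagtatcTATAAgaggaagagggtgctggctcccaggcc
Prm2: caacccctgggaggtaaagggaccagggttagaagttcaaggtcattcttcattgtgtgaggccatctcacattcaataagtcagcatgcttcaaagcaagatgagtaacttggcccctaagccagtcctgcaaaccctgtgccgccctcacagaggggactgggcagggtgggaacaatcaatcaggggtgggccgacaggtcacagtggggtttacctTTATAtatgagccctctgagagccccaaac
Tnp2: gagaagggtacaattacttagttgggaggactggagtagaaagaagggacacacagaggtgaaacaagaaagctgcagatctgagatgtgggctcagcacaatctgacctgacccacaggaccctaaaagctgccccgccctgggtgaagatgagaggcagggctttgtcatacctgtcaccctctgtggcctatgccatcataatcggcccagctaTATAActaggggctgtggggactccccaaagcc
Each of these windows held 1 TATAA match, starting 30 to 33 bases before the start site. In Prm2 the match lies on the opposite strand and is printed as TTATA. Of 32851 RefSeq promoters 22.8% held a match on either strand in a window of that length. The Prm1 window also held TGACTTCA, 64 to 57 bases before the start site. Of all promoters 11.9% held a TGANNTCA match, and the windows of Prm2 and Tnp2 held none.

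In the Cre-positive libraries Prm1 stood at 5.48, 5.76, 3.81, 4.81, 5.23 and 5.46 CPM in replicates 1 to 6, from 201 to 293 counts each. In the Cre-negative libraries it stood at 0.0560, 0.0861, 0.214, 0.217, 0.176 and 0.0195 CPM, from 1 to 14 counts each. Every Cre-positive library was far above every Cre-negative one. The means were 5.09 ± 0.703 and 0.128 ± 0.0852 CPM (SD, n = 6 each). This was a log2 fold change of 5.28 with an SE of 0.33 and a 95% interval of 4.59 to 5.96, at an edgeR adjusted p of 5.3e-12. In the 12 libraries of the syn-Cre line, both groups, Prm1 lay between 0.0209 and 0.208 CPM, the range of the gfap-Cre-negative group. Within the gfap libraries with more reads outside genes the log2 fold change was 6.59 (edgeR adjusted p = 1.3e-10), and within those with fewer it was 4.49 (adjusted p = 0.000106).

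The other genes of sperm chromatin and the sperm tail stayed at a few counts or near equal levels. Over the 12 gfap libraries Prm2 summed to 4 counts in Cre-positive and 7 in Cre-negative samples, and Tnp2 to 3 and 3. Prm3, Tnp1, the sperm tail scaffold gene Akap4 and the sperm mitochondrial gene Smcp were at 0 counts in all 12 libraries, which allows up to 0.0459 to 0.0659 CPM per library. Of the 12 genes on the list 3 had enough counts to be tested. Besides Prm1 these were the heat shock gene Hspa1l, at a log2 fold change of −0.07 (edgeR adjusted p = 1.00), and the testis kinase gene Tssk6, at −0.42 (adjusted p = 1.00). The labelled tissue thus showed 1 protamine transcript without the defining spermatid markers Prm2, Tnp1, Tnp2 and Akap4. A count per gene does not separate reads of the chromosomal Prm1 from reads of a copy of its sequence elsewhere, no source used here gives the structure of the Cre construct, and this was not tested.

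Prickle2 (ENSMUSG00000030020, GRCm38 chromosome 6, 92370908 to 92706155, minus strand) encodes a cytoplasmic partner of the transmembrane proteins of the planar cell polarity pathway, which orients cells within a tissue, and is found at postsynaptic sites of neurons. It has 4 RefSeq start sites. The 250 bases before the outermost one, at chr6:92706185-92706434 on the minus strand of GRCm38.p6, are shown for contrast with the windows above.
Prickle2: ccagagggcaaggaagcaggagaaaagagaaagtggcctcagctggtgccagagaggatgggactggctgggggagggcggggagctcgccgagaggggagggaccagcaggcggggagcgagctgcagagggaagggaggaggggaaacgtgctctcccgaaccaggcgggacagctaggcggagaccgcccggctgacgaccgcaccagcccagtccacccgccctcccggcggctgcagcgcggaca
This window was 70.0% G and C and held neither motif, against 51.6% G and C in the Prm1 window.

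In Cre-positive libraries Prickle2 stood at 179, 185, 164, 142, 157 and 185 CPM, and in Cre-negative libraries at 324, 318, 401, 249.9, 344 and 304 CPM. The highest Cre-positive library was below the lowest Cre-negative one, Cre-negative 4. The means were 169 ± 17.2 and 323 ± 49.7 CPM (SD, n = 6 each), a log2 fold change of −0.94 (SE 0.08, 95% interval −1.09 to −0.78, edgeR adjusted p = 7.8e-09). The syn-Cre line held 271 to 322 CPM over both of its groups, with means of 292 ± 13 in syn-Cre-positive and 305 ± 14.1 in syn-Cre-negative libraries (SD, n = 6 each). Every library of the other 3 groups of the series was above every gfap-Cre-positive one. In the set with more reads outside genes the difference was −0.79 (adjusted p = 2.2e-08), and in the set with fewer it was −1.10 and did not pass (edgeR adjusted p = 0.183, 3 against 3 libraries).

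**Figure D1:**
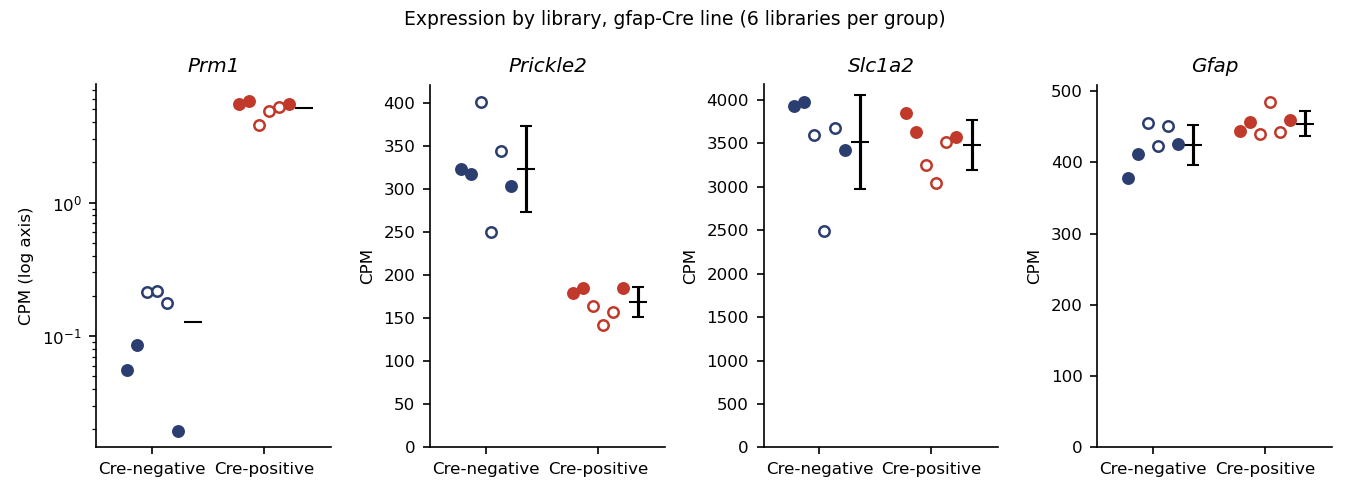
CPM of Prm1 (log axis), Prickle2, Slc1a2 and Gfap in each of the 6 Cre-negative (blue) and 6 Cre-positive (red) libraries. Filled circles are libraries with 5.88 to 6.37% of reads outside genes and open circles those with 4.47 to 5.35%; black marks give the group mean and, except for Prm1, ± SD. The groups are apart for Prm1 and Prickle2 and overlap for Slc1a2, with the lowest value in library Cre-negative 4, and for Gfap.

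The difference between the contrasts of both lines, syn minus gfap, was tested for every gene in the same model and passed for these same 2 genes (0.0101% of 19726). It was −5.04 for Prm1 (SE 0.59) and 0.88 for Prickle2 (SE 0.11), each at edgeR adjusted p = 5.7e-05. The lines differ in Cre driver and in labelled EAAT2 genotype together.

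No other gene of the planar cell polarity pathway passed. Of 15 tested members 1 was called, 7 had a log2 fold change above 0 and 8 below, and the median was −0.0021, where all tested genes had a median of −0.0026 and 48.8% lay above 0. Without Cre-negative 4 the list median was −0.080. Prickle1, the closest relative, stood at 84.2 to 95.1 CPM in Cre-positive and 89.0 to 105 CPM in Cre-negative libraries (log2 fold change −0.09, edgeR adjusted p = 1.00). Ankrd6, a Diversin-type regulator that binds Dishevelled, was at 0.17 (95% interval 0.02 to 0.33, adjusted p = 1.00). The cadherin gene Celsr2 was at −0.14 and the core membrane component Vangl2 at −0.06, and their groups overlapped.

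No gene around either called locus passed. Within 5 Mb of Prickle2, 0 of 91 tested genes were called by edgeR, 2 had an unadjusted p under 0.05 and the median log2 fold change was 0.0059. The nearest protein-coding gene upstream, the metalloprotease gene Adamts9, was at 0.08. On the other side Trh, the thyrotropin-releasing hormone precursor, was at −1.79 (adjusted p = 1.00), which rested on 2.64 CPM in library Cre-negative 4 and was −0.46 without it. Within 5 Mb of Prm1, 0 of 57 were called by edgeR and 1 had an unadjusted p under 0.05, Socs1, a feedback inhibitor of cytokine signalling. It starts 20.3 kb from the start of the GENCODE gene model of Prm1, which is longer than the RefSeq one. Socs1 stood at 0.188 ± 0.107 CPM in Cre-positive and 0.425 ± 0.138 CPM in Cre-negative libraries (SD, n = 6 each), a log2 fold change of −1.17 (edgeR adjusted p = 1.00). The endosomal gene Clec16a (−0.01), the NMDA receptor subunit gene Grin2a (0.02) and Litaf (−0.04) nearby lay close to 0.

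**Figure D2:**
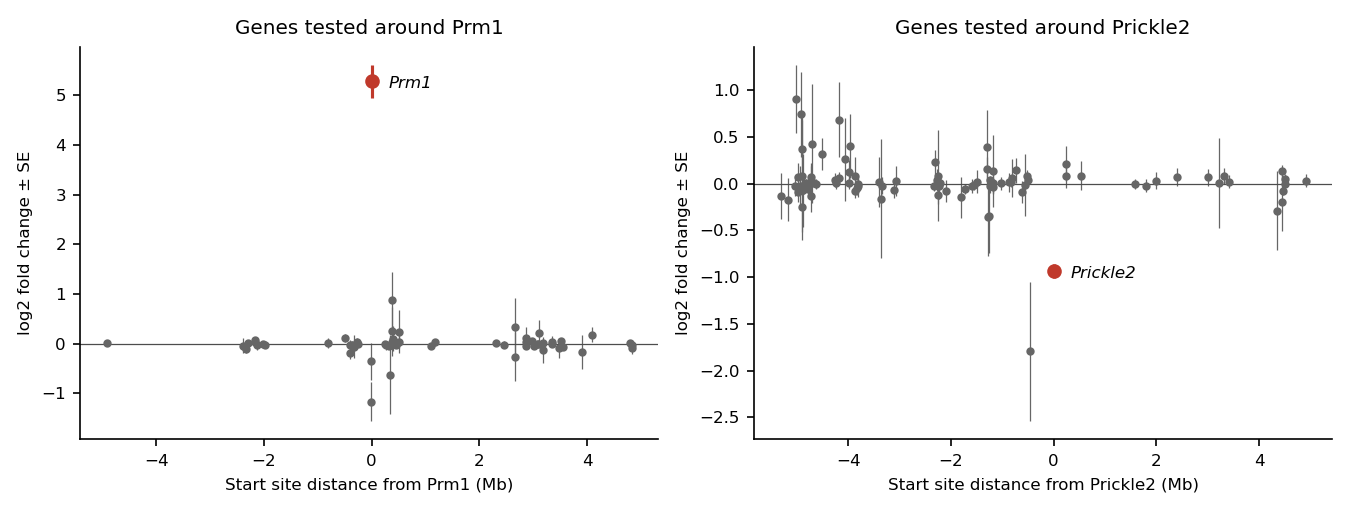
Log2 fold change with its SE against the distance of each tested gene's GENCODE start site from that of Prm1 (left) or Prickle2 (right), in Mb. The called gene is red, and the grey neighbours lie around 0 apart from genes with wide errors. Examples are the low-count gene Trh at −1.79 and Gm23935 near Prm1 at −0.63 (SE 0.80).

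Across all genes 590 had an unadjusted p under 0.05 (2.99%), 282 higher (1.43%) and 308 lower (1.56%) in Cre-positive brains. The groups did not overlap in 39 genes (0.198%), 24 higher (0.122%) and 15 lower (0.0760%), Prm1 and Prickle2 among them. The 95% interval lay within 1.5-fold of no change for 98.9% of genes at 10 to 100 CPM and 99.7% at 100 CPM or more. Below 1 CPM it lay within 1.5-fold of no change for 7.25% of genes and within 2-fold for 49.98%. A call was stricter than these single-gene intervals, because p was adjusted over 19726 genes. Kctd21 and Hist3h2a, at log2 fold changes of 0.25 and 0.29, were not called. Changes of that size, or larger ones in rare genes, could therefore be missed at this depth and number of animals.

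**Figure D3:**
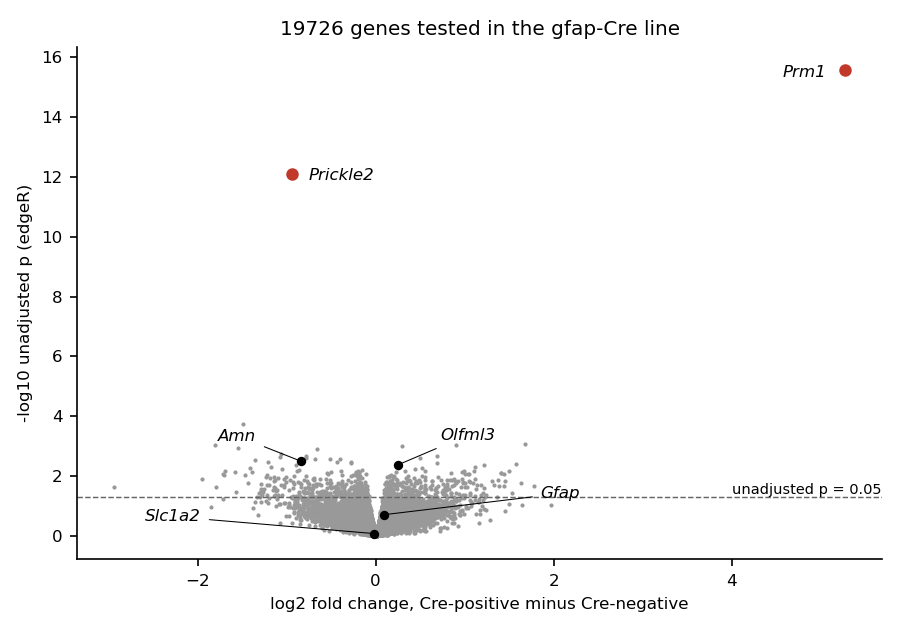
Log2 fold change (Cre-positive minus Cre-negative) against −log10 of edgeR's unadjusted p for 19726 tested genes. The called genes Prm1 and Prickle2 (red) stand apart from the rest, and Slc1a2, Gfap, Olfml3 and Amn are marked in black.

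Other genes with a small unadjusted p had edgeR adjusted p values of 1.00 and are given as values. Hist3h2a, a replication-type histone gene, stood at 13.5 ± 0.795 against 11.0 ± 1.06 CPM (SD, n = 6 each, Cre-positive first), a log2 fold change of 0.29. Kctd21, an adaptor for protein ubiquitination, was at 0.25, the secreted protease gene Htra4 at 0.50 and the inflammatory regulator Nfkbiz at 0.22. The groups of Kctd21 and Nfkbiz did not overlap. On the lower side Pigz, a mannosyltransferase for membrane anchors, was at −0.40, the membrane protein gene Tmem125 at −0.43 and the calcium-dependent phosphodiesterase gene Pde1c at −0.28. Amn, which encodes a partner of the cubilin receptor, was at −0.84 and at −0.47 without library Cre-negative 4.

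No enzyme or carrier of the glutamate and glutamine cycle passed, with 0 of 16 called by edgeR, 8 above 0 and 8 below, and a median of −0.0051. Glutamine synthetase, Glul, ranged from 1496 to 1752 CPM in Cre-positive and 1473 to 1572 CPM in Cre-negative libraries (log2 fold change 0.07, 95% interval −0.05 to 0.18). The vesicular carrier gene of cortical neurons, Slc17a7, was at 0.04. Aldh18a1, which starts proline synthesis from glutamate, had the smallest unadjusted p of the list and was at 0.12 (edgeR adjusted p = 1.00). Slc17a6, the vesicular carrier gene of thalamic and other subcortical neurons, was at −0.44 with Cre-negative libraries between 5.6 and 30.1 CPM.

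Glutamate and GABA receptor genes showed no call. Among 15 AMPA receptor subunits and auxiliaries the median was −0.010 and 7 lay above 0. The auxiliary subunit genes Cacng7 and Cacng8 had the smallest p, both at −0.31, and Cacng8 was at −0.19 without library Cre-negative 1. NMDA receptor genes had a median of −0.080, with 2 of 7 above 0, and −0.14 without Cre-negative 4. The obligate subunit gene Grin1 was at −0.07, and Grin2b was at −0.16 with 373 to 821 CPM in the Cre-negative group. Metabotropic receptor genes (median −0.042, 2 of 7 above 0), kainate and delta receptor genes (median −0.0093, 2 of 9) and GABA genes (median −0.023, 6 of 19) had no called member either.

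Astrocyte identity genes were all detected and none passed, with 0 of 20 called by edgeR, 15 above 0 and a median of 0.021. Gfap ranged from 440 to 485 CPM in Cre-positive libraries and 378 to 455 CPM in Cre-negative ones, with medians of 449.9 and 424. Its log2 fold change was 0.10 (95% interval −0.05 to 0.25, edgeR adjusted p = 1.00), an upper bound of 19.1%. The endfoot water channel gene Aqp4 was at 0.10, the potassium channel gene Kcnj10 at −0.0053, the gap junction gene Gja1 at 0.02, the folate enzyme gene Aldh1l1 at 0.0067 and the glial transcription factor gene Sox9 at 0.13. In the set with more reads outside genes 7 of the 20 lay above 0, and in the other set 17 of 20.

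Reactive astrocyte genes had 0 of 13 called and 12 above 0, with a median of 0.19. The mean log2 CPM of the list lay between 1.85 and 2.14 in Cre-positive libraries and between 1.37 and 1.76 in Cre-negative ones, so its library means did not overlap. Of the 51 lists 1 other, the sperm list that holds Prm1, had means that did not overlap. A mean of log values weights rare genes as heavily as abundant ones, and 4 of the 13 members were under 1 CPM in both groups. The chemokine gene Cxcl10 was one of them, at 0.368 ± 0.107 against 0.178 ± 0.149 CPM (SD, n = 6 each), a log2 fold change of 1.06 (edgeR adjusted p = 1.00). Lipocalin 2, Lcn2, an acute-phase gene, was another, at 0.160 to 0.364 against 0 to 0.158 CPM (log2 fold change 1.17, adjusted p = 1.00). The abundant members lay closer to 0, with the protease inhibitor gene Serpina3n at 0.06, the filament gene Vim at 0.08 and the adhesion gene Cd44 at −0.18. With the fits of each set of 6 libraries, where 10 members could be tested, the median was 0.021 with more reads outside genes and 0.095 with fewer. With 1 library left out the list median ranged from 0.085, without Cre-positive 4, to 0.18.

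Microglial genes lay mostly above 0 without a call. Of 19 homeostatic genes 18 were above 0, with a median of 0.092, or 0.059 without Cre-positive 5. The secreted protein gene Olfml3 stood at 21.4 to 28.1 CPM in Cre-positive and 18.9 to 21.3 CPM in Cre-negative libraries, which did not overlap (log2 fold change 0.25, 95% interval 0.09 to 0.42, edgeR adjusted p = 1.00). Selplg, a selectin ligand gene, was at 0.15 and the membrane protein gene Tmem119 at 0.16. Disease-associated microglial genes were above 0 in 15 of 21 (median 0.060, or 0.030 without Cre-positive 4), with the lipid receptor gene Trem2 at 0.12 and the chemokine gene Ccl6 at 0.38. For Trem2 the value was 0.06 without library Cre-positive 4.

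Interferon and class I antigen genes were above 0 in 24 of 28, with a median of 0.088 and 0 called, and the median was 0.056 without Cre-positive 5. It was 0.025 with 17 of 27 above 0 in the set with more reads outside genes and 0.185 with 21 of 27 in the set with fewer. Stat2, which carries the interferon signal to the nucleus, stood at 20.7 to 25.8 against 18.0 to 22.1 CPM (log2 fold change 0.17, edgeR adjusted p = 1.00), and the interferon-induced gene Ifi44 was at 0.76 at levels under 0.5 CPM. Complement genes were above 0 in 11 of 14 (median 0.081, or 0.016 without Cre-positive 4), with the protease gene C1ra at 2.63 ± 0.430 against 1.89 ± 0.251 CPM (SD, n = 6 each), a log2 fold change of 0.47. Toll-like receptor and NF-kappa-B genes were split, 10 above 0 and 9 below, with Tlr1 at 0.56 and Relb at −0.21.

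Genes of cells at the brain's borders also lay above 0. All 15 meningeal fibroblast genes (median 0.41) and all 10 border macrophage and class II genes (median 0.53) were above 0, and 0 were called. The collagen gene Col3a1 ranged from 0.780 to 3.51 CPM in Cre-positive and 0.413 to 1.63 CPM in Cre-negative libraries (log2 fold change 1.13, edgeR adjusted p = 1.00). The forkhead gene Foxc1 was at 0.43 and the class II chaperone gene Cd74 at 0.87. Aldh1a2, which makes retinoic acid, was at 0.83. Summed over the 15 meningeal genes, levels ran from 266 to 886 CPM in Cre-positive and from 279 to 587 CPM in Cre-negative libraries, and every member was detected in both groups. By mean log2 CPM the meningeal list was highest in Cre-positive 3, 4 and 5 (3.42 to 3.83) and in Cre-negative 5 (3.34), against 2.41 to 2.87 elsewhere. In the set with fewer reads outside genes, which holds these 4 libraries, its median was 0.73 with 15 of 15 above 0, and in the other set 0.055 with 8 of 15. Without Cre-positive 3 it was 0.31. The border macrophage list had a median of 0.92 with 10 of 10 above 0 in the set with fewer reads outside genes and 0.17 with 6 of 9 in the other. With 1 library left out it ranged from 0.43, without Cre-positive 3, to 0.81, without Cre-negative 5. The share of border tissue in each sample was not measured otherwise, and its part in the microglial, interferon and complement values was not tested.

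Vessel and blood lists had no call. Endothelial genes were above 0 in 14 of 15 (median 0.075), in 4 of 15 with more reads outside genes and in 15 of 15 with fewer. The endothelial median was 0.028 without Cre-negative 1. Mural genes were evenly split (5 of 10, median −0.017), at −0.063 and 0.11 in the same sets. Choroid plexus and ependymal genes were above 0 in 10 of 16 (median 0.13, or 0.018 without Cre-positive 5), with library means of log2 CPM from 0.39 to 2.17 in Cre-positive and 0.44 to 2.01 in Cre-negative samples. Haemoglobin and heme synthesis genes lay below 0 in 5 of 5 (median −0.14), with medians from −0.31, without Cre-positive 5, to −0.011, without Cre-negative 4.

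Myelin and presynaptic genes lay mostly below 0, while other neuronal lists were split. Mature oligodendrocyte genes were below 0 in 15 of 16, with a median of −0.083 and 0 called. Myelin-associated glycoprotein, Mag, stood at 121 to 178 against 126 to 195 CPM (log2 fold change −0.15), and the paranodal protein gene Opalin was at −0.19. The direction differed between the sets of libraries: 11 of 16 lay above 0 with more reads outside genes (median 0.042) and 0 of 16 with fewer (median −0.20). With 1 library left out the median ran from −0.14, without Cre-positive 2, to −0.032, without Cre-positive 6. Presynaptic release genes were below 0 in 18 of 20 (median −0.048), and in 17 of 20 and 14 of 20 in the separate sets. The vesicle protein gene Sv2a stood at 516 to 556 CPM in Cre-positive and 555 to 589.9 CPM in Cre-negative libraries (log2 fold change −0.10, 95% interval −0.19 to −0.02, edgeR adjusted p = 1.00). The vesicle GTPase gene Rab3a was at −0.64, and from −1.07 to −0.087 over all alternatives. Its group means of 1.10 and 1.72 CPM lay far below the list's means of 8.54 and 8.62 log2 CPM. Why so few reads were counted for Rab3a was not tested, so its value says little about the gene. All 12 pan-neuronal genes were below 0 (median −0.028), though with 1 library left out 1 to 4 of them lay above 0 (median −0.010 without Cre-negative 3), with the neuronal tubulin gene Tubb3 at −0.17 and at −0.09 without library Cre-negative 4, the highest of its group. Excitatory neuron genes were above 0 in 7 of 12 (median 0.026), postsynaptic scaffold and adhesion genes in 11 of 17 (median 0.022) and interneuron genes in 7 of 14 (median −0.0043). Without Cre-negative 4 these medians were −0.0081, −0.043 and 0.014.

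Genes that mark brain regions held no call. Hippocampal genes were above 0 in 10 of 13 (median 0.052), with medians of 0.23 in the set with more reads outside genes and −0.098 in the set with fewer. Striatal genes were split, 5 of 10 above 0 (median −0.015), at 0.13 and −0.12 in these sets. Thalamic genes were above 0 in 3 of 10 (median −0.067), cortical genes in 4 of 9 (median −0.040) and cerebellar genes in 6 of 11 (median 0.035). Of 10 hypothalamic genes 5 could be tested, with a median of −0.34. It was 0.29 in the set with more reads outside genes, −0.42 in the set with fewer and 0.12 without Cre-negative 5. Their mean log2 CPM ran from −2.82 to −1.50 in Cre-positive and −2.35 to −0.98 in Cre-negative libraries.

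Mitochondrially encoded genes were above 0 in 12 of 13, with a median of 0.10. Of the 13, 6 had an unadjusted p under 0.05, against 2.99% of all genes tested, and 0 were called. The 13 genes were measured in the same libraries, whose mitochondrial share varies, so the 6 are not separate observations and setting these shares side by side is not a test. The complex I gene mt-Nd2 stood at 4263 to 5132 against 3689 to 4946 CPM (log2 fold change 0.15, 95% interval 0.03 to 0.26, edgeR adjusted p = 1.00). Cytochrome b, mt-Cytb, was at 0.14, the cytochrome oxidase gene mt-Co1 at 0.10 and mt-Atp8 at 0.37. As a share of all gene counts, mitochondrial transcripts took 5.64 to 6.32% in Cre-positive and 4.95 to 5.94% in Cre-negative libraries, ranges that overlap. In the sets of libraries the list median was 0.057 with more reads outside genes and 0.14 with fewer. Nuclear genes of oxidative phosphorylation were above 0 in 9 of 24 (median −0.0053). Without Cre-negative 4 that became 24 of 24, with a median of 0.059.

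Metabolic and stress lists held no called gene. Cholesterol genes were below 0 in 16 of 23 (median −0.024). Among them the sterol desaturase gene Sc5d was at 0.10 with groups that did not overlap. Heat shock and unfolded protein genes were above 0 in 16 of 20 (median 0.062), with the disulfide isomerase gene Pdia4 at 35.0 to 47.3 against 31.3 to 34.4 CPM (log2 fold change 0.24, adjusted p = 1.00). Over all 681 list genes tested, 31 (4.55%) had an unadjusted p under 0.05 against 2.99% of all genes tested. The groups of 6 list genes did not overlap, against 0.198% of all genes tested: Prm1, Prickle2, Lcn2, Olfml3, Sc5d and Pdia4. The lists hold both called genes and were chosen with earlier results of these data known, so setting these shares side by side is not a test.

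**Figure D4:**
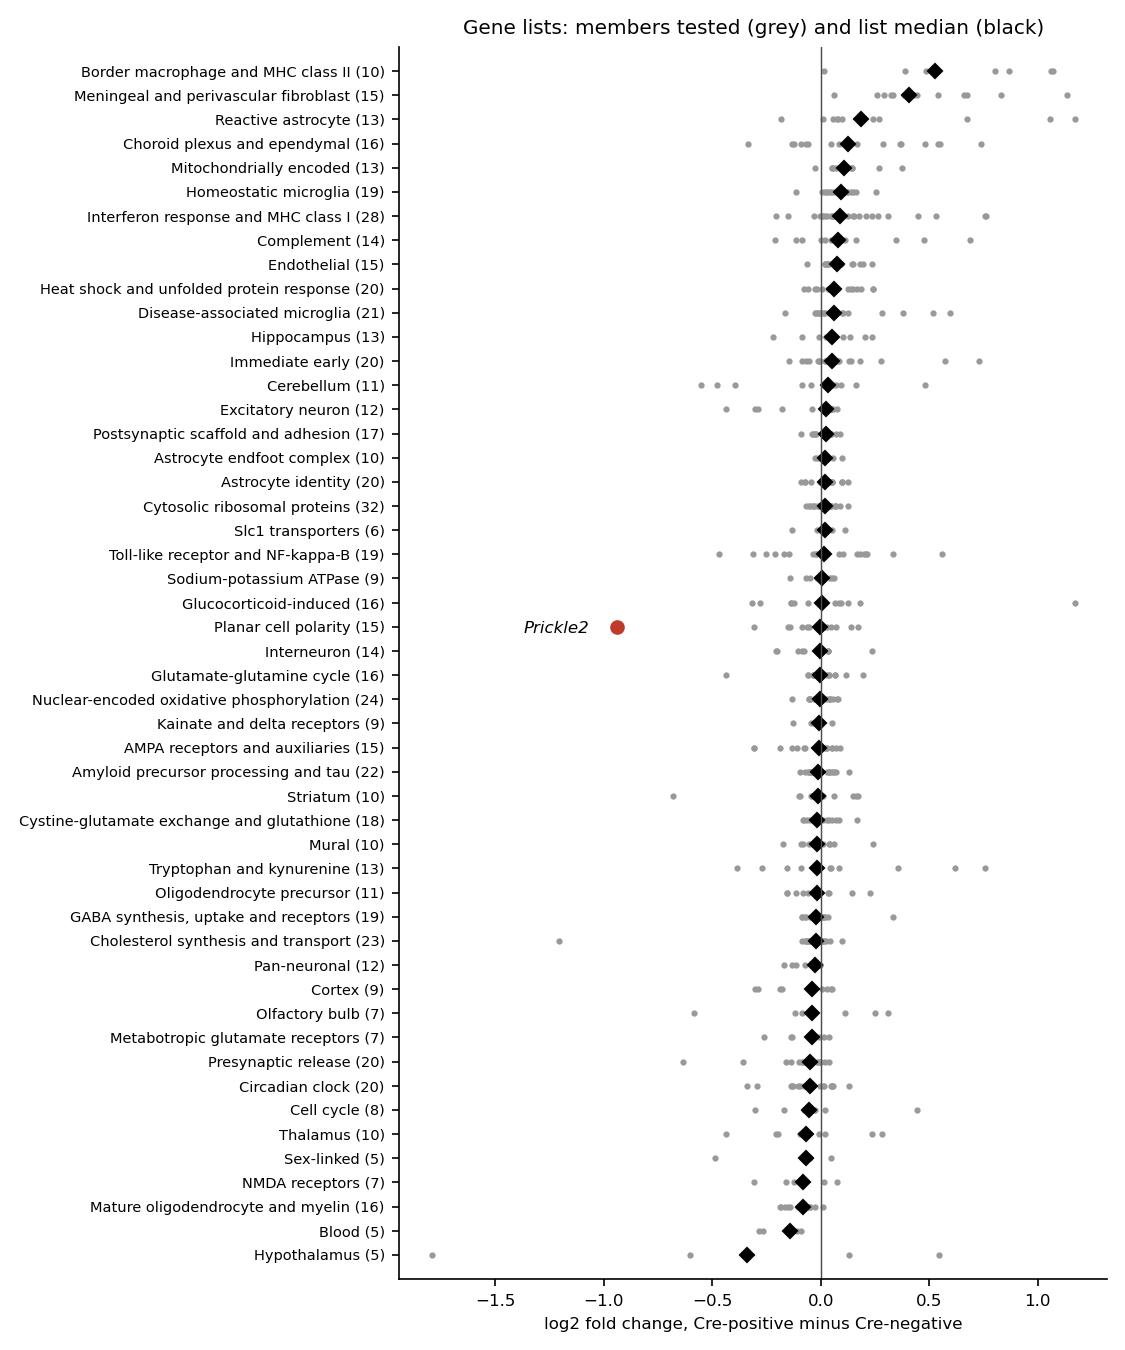
Log2 fold change (Cre-positive minus Cre-negative) of the tested members of 50 gene lists (grey), with list medians (black diamonds) and the number of members tested in brackets. The sperm list with Prm1 is not drawn; Prickle2 (red) is the 1 called gene shown, and the medians farthest from 0 are those of the border macrophage (0.53), meningeal (0.41) and hypothalamic (−0.34) lists.

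The list medians depended on which libraries were compared. In 20 of 51 lists the median had opposite signs in the set with more and the set with fewer reads outside genes. In the other 31 lists the median had 1 sign in both sets. Presynaptic, homeostatic microglial (0.045 and 0.11) and complement genes (0.034 and 0.055) are examples of these, while oligodendrocyte, endothelial and astrocyte identity genes are not. With 1 library left out at a time, 26 of 51 lists had medians on both sides of 0, and in 22 of 51 the lowest or highest median came from leaving out Cre-negative 4.

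**Figure D5:**
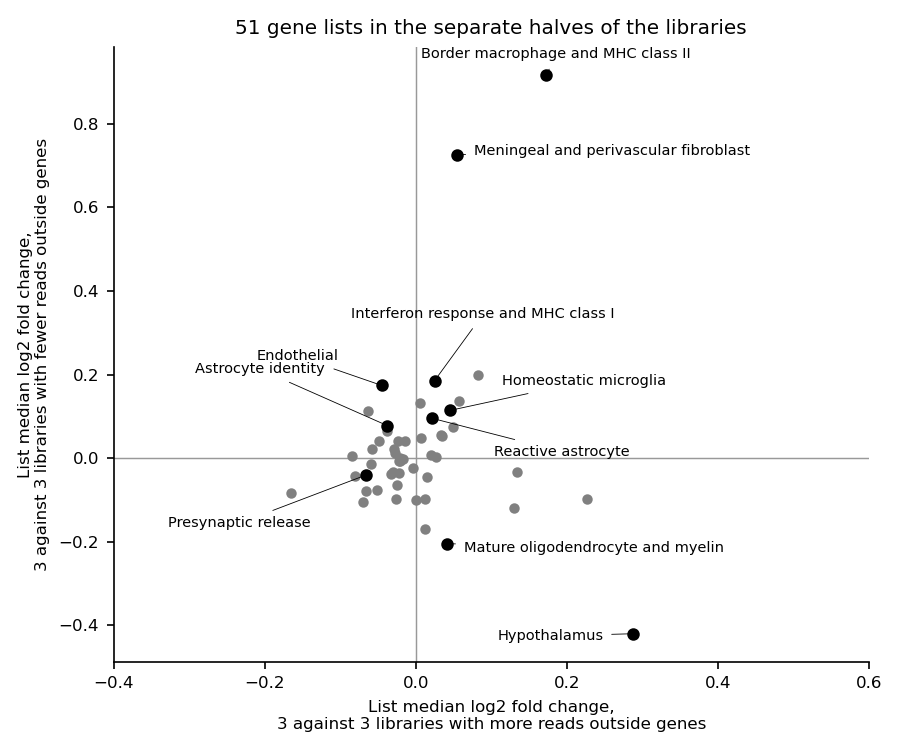
Median log2 fold change of each of 51 gene lists in the 6 libraries with more reads outside genes (x axis, 3 per group) against that in the 6 with fewer (y axis, 3 per group). The meningeal (0.055 and 0.73) and oligodendrocyte (0.042 and −0.20) lists lie far from equal values, and lists in the upper left and lower right have opposite signs.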

How the data were processed

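RNA from brain was sequenced on an Illumina HiSeq instrument, per the labels' protocols. The files deposited by the authors hold counts per gene, not normalized; HISAT2, HTSeq 0.6.0, DESeq2 1.6.3 and mm10 are named per the submitters' processing notes. No source used here gives the strand setting or the annotation of the counting. The 5 summary lines per file, which name no gene, were left out; reads outside genes took 4.47 to 6.37% of file reads in the gfap libraries. GENCODE M21 (GRCm38) gave symbols for 52489 of 52636 identifiers. Counts of all 24 libraries were filtered with filterByExpr and normalized by TMM. The robust quasi-likelihood model, in edgeR 4.0.16 under R 4.3.3, held 4 groups and 20 residual degrees of freedom. The contrast was gfap-Cre-positive minus gfap-Cre-negative, with Benjamini-Hochberg adjustment over 19726 genes. SE are Wald errors.

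All 30 within-group pairs differed by more than counting noise (chi-square per gene at least 8.09), and all were kept as separate samples. The labels' protocols count mice per group, so replicates are animals, and numbers follow accession order. The 51 lists (720 genes) are described by counts and medians. The members and lists were chosen with earlier results of these data known. Named genes are Slc1a2, Gfap, called genes, those with the smallest p or largest change at 1 CPM or more, up to 4 members per list, all members of 6 lists, and genes within 1 Mb of a called gene; only part of these is printed. Alternatives were RLE and upper-quartile factors, other filters, DESeq2 1.42.0, limma-voom (limma 3.58.1), the gfap libraries alone and leaving out each library. The script was tested on simulated data.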

Additional observations from a re-analysis of the deposited data

Results flagged for a closer look

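The contrasts of both lines differed for 2 genes by a test of the difference itself, syn minus gfap: −5.04 for Prm1 and 0.88 for Prickle2 on the log2 scale (edgeR adjusted p = 5.7e-05 each).

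Among the 70 genes looked at in both groups (140 groups of 6), 10 groups had 1 library far from the other 5. Chance flags about 1 in 20 groups. The genes looked at were those picked for the text and come from the same libraries, so setting the flags beside that rate is not a test. Of the 10, 5 were in library gfap-Cre-negative 4. There Slc1a2 stood at 2494 CPM against 3430 to 3980 in the others, Celsr2 at 230.3 against 319.9 to 371, Tubb3 at 368 against 256 to 293, Amn at 8.08 against 2.06 to 3.89 and Trh at 2.64 against 0.0917 to 0.413. In gfap-Cre-negative 3 Serpina3n stood at 68.6 CPM against 50.6 to 56.3 and C1ra at 2.37 against 1.70 to 1.89. In gfap-Cre-positive 3 Slc17a7 stood at 1629 CPM against 1399 to 1484. In gfap-Cre-positive 2 Lcn2 stood at 0.364 CPM against 0.160 to 0.228, and in gfap-Cre-positive 4 Trem2 at 19.8 against 14.8 to 16.2.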

How the results depend on the processing

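Prm1 and Prickle2 were called, and no other gene, with RLE or upper-quartile factors, no filter, a filter of 1 CPM in 6 libraries, DESeq2, limma-voom with quality weights, the 12 gfap libraries alone, leading title number as a random block (within-number correlation −0.061), and with any 1 of the 12 libraries left out. No paired analysis was possible because the leading title numbers lie within 1 group each. Of the alternatives chosen after seeing the data, a term for reads outside genes gave the same 2 calls (746 genes at unadjusted p under 0.05), and 3 others moved the count. The 6 libraries with more reads outside genes gave 4 calls, 2 higher and 2 lower, adding Prox1 (0.37) and Coro6 (−0.63), both at edgeR adjusted p = 0.0294, with 1222 genes at an unadjusted p under 0.05. The 6 with fewer gave 1 call, Prm1, and 0 lower, while 458 genes had an unadjusted p under 0.05. There Prickle2 was at −1.10 (adjusted p = 0.183; its range over all alternatives was −1.10 to −0.79) and Slc1a2 at 0.0070. With the first principal component as a covariate 2 genes were called lower, adding Mir9-3hg (−0.28, adjusted p = 0.0207). Each set of 6 holds 3 libraries per group, while the fit with the principal component used all 12 gfap libraries. The cause of these shifts was not tested. With 1 library left out Slc1a2 ranged from −0.10 to 0.023 and did not pass, and its sign changed without Cre-positive 3 or 4 or Cre-negative 1 or 2. Depth limits genes below 1 CPM most.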
